A study of Mus musculus with 6 samples.

Results

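The regions described here were promoter regions at which CTCF peaks were called with wild-type CTCF and not with an O-GlcNAc-deficient CTCF. They were chosen by the peak calls themselves: a joined region on chromosomes 1-19 or X had to overlap, by at least 1 bp, a peak in both WT_CTCF lists and in neither MUT_CTCF list, and had to lie within 1 kb of an annotated transcript start. The rule found 1569 regions among 57662 joined regions, of which 57644 lay on these chromosomes. They are called WT-only promoter regions below, and regions over 1 kb from every start are called distal.

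CTCF ChIP-seq had been performed in mouse embryonic stem cells (mESCs), with 2 CTCF libraries and 1 input library for each genotype. The cells of both genotypes carried an endogenous CTCF fused to an auxin-inducible degron and EGFP, which auxin removed. An introduced CTCF took its place, either wild-type (WT_CTCF) or mutated at T668 to alanine (MUT_CTCF), a residue that carries O-GlcNAc. The cells were picked clones chosen for a level of introduced CTCF near that of the endogenous protein, so a difference between genotypes cannot be told apart from a difference between clones. The peak lists hold no expression values, and the cell type could not be checked against marker genes. The input libraries did not enter the analysis.

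The zinc finger protein CTCF binds a long DNA motif, halts the loop-extruding cohesin complex and so helps to set the ends of chromatin loops. Many of its sites lie between genes or in introns, but some lie at promoters, where a bound CTCF can join a gene to a distant enhancer. Many mammalian promoters are CpG islands, stretches rich in G and C in which the dinucleotide CG is frequent and mostly unmethylated. O-GlcNAc is a single sugar that O-GlcNAc transferase adds to serine and threonine residues of nuclear and cytoplasmic proteins.

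Each peak carries a score set by the peak caller, whose definition is not given in the sources used here. Strong and weak below refer to this score alone, and not to a measured amount of binding. How deeply each library was sequenced is unknown here. A region without a MUT_CTCF call has no score in the MUT_CTCF lists, so a missing call is not a measured loss of binding. Because the calls of the 4 libraries chose the members, the differences in calls below are descriptions and were not tested. G+C and motifs were read from the reference genome in a window of 300 bp around the mean WT_CTCF summit.

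Sequences at members with high scores and a CTCF core motif of at most 1 mismatch are shown first, so that the motif can be read directly. Such a motif was held by 37.5% of members, so these stretches do not stand for all of them. The coordinates are of mouse build mm9, and the strand is that of the printed sequence. Among members whose 13-base core motif had no mismatch, those with the highest scores lay at Stag1 (chr9:100543984-100544012, plus strand), Vps37d (chr5:135554205-135554233, plus strand), Gm16899 (chr1:7388458-7388486, plus strand), Gpr153 (chr4:151657479-151657507, minus strand) and Gm4980 (chr7:106774406-106774434, plus strand). The highest scores of all lay at Carm1 (chr9:21351231-21351259, plus strand), Usp42 (chr5:144493182-144493210, plus strand), 1700081L11Rik (chr11:104303727-104303755, plus strand) and Cdc73 (chr1:145550038-145550066, plus strand), each with 1 mismatch in the core. Capitals mark the core.
Stag1: cagcgcggCCAGCAGAGGGCGgtcgggac
Vps37d: gcgttctgCCACCAGGGGGCGccttgacc
Gm16899: cccacaggCCAGCAGAGGGCGcctcggct
Gpr153: gcgtacggCCACCAGGGGGCGttgggacc
Gm4980: cagccaggCCAGCAGGGGGCGcgaggtgc
Carm1: ctcaggcgCCAGGAGGGGGCGctgcgcca
Usp42: cggccgggCCGCCAGGGGGCGcaccaggg
1700081L11Rik: ccggcgcgCCGCCAGGGGGCGcccgcctc
Cdc73: gcgggccgCCGCCAGGGGGCGccgtggcc

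The surroundings of the summits differed widely between members. The 120 bases around the summit are printed for the 2 members with the highest scores, at Carm1 (chr9:21351194-21351313, plus strand) and Usp42 (chr5:144493151-144493270, minus strand), and for a member in an intron of Pou5f1 (chr17:35645361-35645480, plus strand), near a start annotated within the gene, in sequence poor in CG. Capitals mark each CG, on the strand of the gene.
Carm1: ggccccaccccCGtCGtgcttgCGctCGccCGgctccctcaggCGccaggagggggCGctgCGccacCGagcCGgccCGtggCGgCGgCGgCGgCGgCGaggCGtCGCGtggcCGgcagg
Usp42: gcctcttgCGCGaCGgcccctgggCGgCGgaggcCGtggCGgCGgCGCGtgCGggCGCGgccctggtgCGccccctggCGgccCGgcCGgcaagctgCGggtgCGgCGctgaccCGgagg
Pou5f1: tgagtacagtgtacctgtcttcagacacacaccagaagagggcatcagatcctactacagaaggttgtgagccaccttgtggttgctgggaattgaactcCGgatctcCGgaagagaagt
The stretches at Carm1 and Usp42 each held 21 CG dinucleotides, and the stretch at Pou5f1 held 2.

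To place the members among the other calls, all 6795 promoter regions were sorted by the lists in which they were called. WT-only calls made up 23.1% of promoter regions (1569) and 19.1% of the 50849 distal regions (9697), and 19.5% of regions at large. Among regions called in both WT_CTCF libraries, the share without any MUT_CTCF call was 28.5% of 5511 promoter regions and 23.9% of 40653 distal regions. The opposite pattern, MUT_CTCF calls in both replicates without a WT_CTCF call, was held by 2 promoter regions, which is 0.0294%. These lay at Cbx2, a Polycomb subunit, and at Il11ra1, a cytokine receptor chain, and are named because they are so few. A further 3438 promoter regions were called in all 4 libraries, and 504 in both WT_CTCF libraries and 1 MUT_CTCF library.

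Fewer promoter peaks were called in each MUT_CTCF library than in each WT_CTCF library. The WT_CTCF lists held 5764 and 6383 promoter peaks, and the MUT_CTCF lists held 3608 and 3455. The means were 6073.5 ± 437.7 (SD, n = 2) and 3531.5 ± 108.2 (SD, n = 2), and the ranges did not overlap. The whole lists were shorter as well, with 49980 and 53988 peaks in WT_CTCF and 33922 and 32698 in MUT_CTCF. Promoter peaks were 11.5% and 11.8% of all peaks in the WT_CTCF lists, and 10.6% in both MUT_CTCF lists.

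Most members were weak peaks of the WT_CTCF lists. Their scores ran from 16 over a median of 96 to 3021 in WT_CTCF replicate 1, and from 20 over a median of 111 to 3226 in replicate 2. The mean of the library medians was 103.5 ± 10.6 (SD, n = 2) at members, against 700.5 ± 41.7 (SD, n = 2) at promoter regions called in all 4 libraries. These shared promoter regions had medians of 287 and 271.5 in the MUT_CTCF libraries. The distal WT-only regions had a median of 90 in both WT_CTCF libraries. Promoter regions with a single MUT_CTCF call lay between, with a median mean WT_CTCF score of 173.5.

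By their mean WT_CTCF score, 748 members (47.7%) lay below 100 and 528 (33.7%) from 100 to under 200. A further 185 members (11.8%) lay between 200 and 400, 94 (5.99%) between 400 and 800, and 14 (0.892%) at 800 or more. The number of members thus fell from each score class to the next, and sequence changed along this order. Median G+C was 48.7% in the lowest class, 53.2%, 61.3% and 69.3% in the next ones, and 74.7% in the highest. The share that was island-like (500 bp with at least 55% G+C and an observed over expected CpG ratio of at least 0.65) was 11.0% in the lowest class, 51.9% between 200 and 400, and 14 of 14 in the highest.

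Both WT_CTCF libraries gave like scores at the members. Scores were higher in replicate 2 at 968 members (61.7%), with a median ratio of 1.14, and differed by no more than 2-fold at 1415 (90.2%). Summits of both libraries lay a median of 13 bp apart and within 50 bp at 1357 members (86.5%). Across regions, which are not independent replicates, Pearson's r of the log10 scores was 0.859 and Spearman's rho was 0.822. Both measures were taken only over regions called in both libraries.

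**Figure D1:**
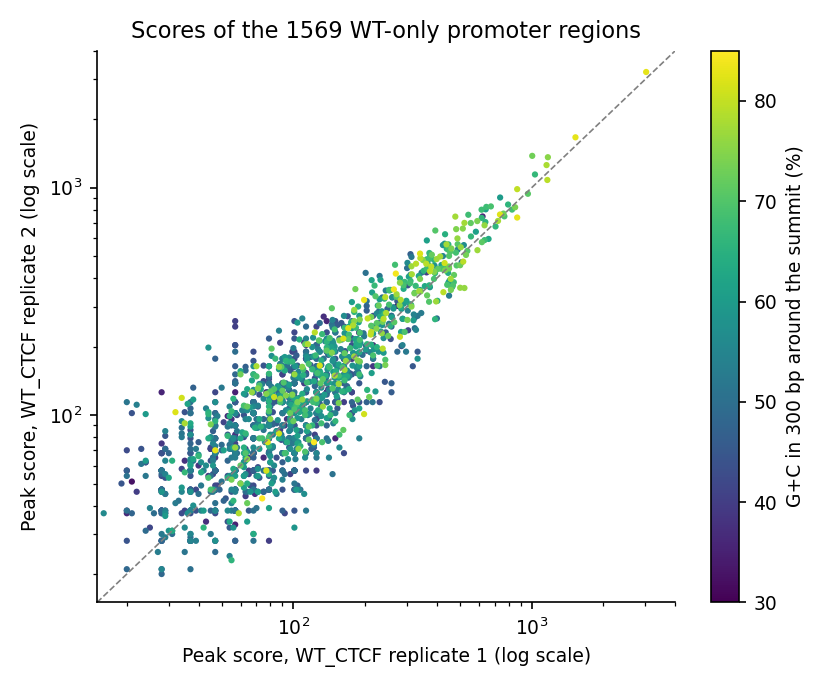
Peak score in WT_CTCF replicate 1 (x axis) against replicate 2 (y axis), both on log scales, for the 1569 WT-only promoter regions, with 1 point per region coloured by G+C in 300 bp around the summit. The points follow the dashed line of equal scores, and the points at the upper right, of scores 800 or more, are G+C-rich with a median of 74.7%.

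The 10 members with the highest scores all lay in sequence of at least 66.7% G+C close to a start. With positions given from the start and negative values upstream, the summit lay at -419 bp at Rnf139 and between -142 and 12 bp at the other 9. Carm1, an arginine methyltransferase that acts on histone H3, had scores of 3021 and 3226 in the WT_CTCF libraries. Its region (chr9:21350955-21351582) covered the start, with its summit at -84 bp and 82.7% G+C. The next highest score of a member was 1665.

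Usp42, a deubiquitinating enzyme, had scores of 1526 and 1665, with its summit at -62 bp and 82.7% G+C. 1700081L11Rik, named Kansl1 in RefSeq, encodes a subunit of a histone acetyltransferase complex and had scores of 1169 and 1361. Cdc73, a subunit of the PAF1 complex that travels with RNA polymerase II, had scores of 1154 and 1257. Stag1, a subunit of cohesin, had scores of 1005 and 1380, with its summit at 12 bp, in a UTR. It was the member of these 10 whose core motif had no mismatch.

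Mif4gd, a partner of the histone mRNA stem-loop binding protein, had scores of 1163 and 1081. Pou2f1, the POU transcription factor also known as OCT1, had scores of 1032 and 1143, at 66.7% G+C. Ing5, a reader of methylated histone H3 within acetyltransferase complexes, had scores of 964 and 940. The last of the 10 were Kctd6, a substrate adaptor of a cullin ubiquitin ligase, with scores of 869 and 985, and Rnf139, a ubiquitin ligase of the endoplasmic reticulum, with scores of 852 and 820. The best match to the core motif had 2 mismatches at Mif4gd, Pou2f1 and Kctd6, and 3 at Ing5 and Rnf139. The score exceeded 800 in both WT_CTCF libraries at each of these 10 regions, while neither MUT_CTCF list held a peak there.

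At the other end, the 3 members with the lowest scores lay at Hist1h4c, a histone H4 gene, at Ddx19a, an RNA helicase of mRNA export, and at Fgfr1, a receptor of fibroblast growth factors. Hist1h4c had scores of 20 and 21, Ddx19a of 20 and 28, and Fgfr1 of 28 and 20. Promoter regions called in all 4 libraries had median scores of 671 and 730 in the same libraries. For the distance limit, members just inside 1 kb lay at Pdf, Bbs10 and Rdh5, with edges 1000, 998 and 998 bp from a start. WT-only regions just outside lay at Ube2t, 1110037F02Rik and Arl6ip5, at 1001, 1001 and 1002 bp. Mean WT_CTCF scores were 144, 57 and 73.5 inside and 62, 132 and 85 outside.

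The deposited mean of scaled read counts gives a second measure of the members, averaged over the 4 libraries of both genotypes. Its median was 61.8 at members, 269.9 at promoter regions called in all 4 libraries and 46 at distal WT-only regions. At like scores the gap was smaller or turned: between scores of 400 and 800 the median was 287.9 at 94 members and 225 at 1055 shared promoter regions. Between 200 and 400 the medians were 135.8 and 133.8. Members had the lower median in the remaining classes. It was 43 against 74.3 below 100, 72 against 93 from 100 to under 200, and 356.6 against 408.8 at 800 or more. This mean pools WT_CTCF and MUT_CTCF, so it does not say how much of it came from either genotype.

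The 5 members with the highest mean count were Gm10800 at 5020, Ing5 at 554.2, Vps4a at 513.5, Cdc73 at 494.8 and Rai1 at 475.8. Vps4a is an ATPase of the ESCRT membrane machinery, with scores of 591 and 713, and Rai1 is a chromatin-associated protein, with scores of 394 and 648. Gm10800 stood apart: its 31-base stretches occurred a median of 19.5 times in the genome, against 1 at the other 4, and its G+C was 36%. Reads from near-identical copies cannot be assigned to a single place, so the count and the scores of 622 and 747 at Gm10800 are uncertain.

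The members were richer in G+C and CG than distal WT-only regions and had more CG than promoter regions called in all 4 libraries. Median G+C was 52% at members, 51% at shared promoter regions, 44.7% at distal WT-only regions and 46% over all regions. The median observed over expected CpG ratio was 0.44 at members, 0.35 at shared promoter regions and 0.19 at distal WT-only regions. Island-like sequence held 411 members (26.2%), against 13.2% of shared promoter regions, 15.3% of all promoter regions and 0.897% of distal WT-only regions. The spread within members was wide, with quartiles of G+C at 45% and 62%.

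When the members were split at 60% G+C, the rich class lay mostly at starts. The poorer class was spread more widely along the 1 kb on either side. The 460 members of 60% G+C or more (29.3%) had median scores of 163 and 182, and 64.4% of their summits lay within 200 bp of a start. The 1109 members below 60% had median scores of 79 and 90, and 24.4% of their summits lay as near. Shared promoter regions had the same contrast in position, with 64.5% and 25.8%, while 15.7% of them were in the rich class. Protein-coding genes were nearest to 93.7% of the rich members and 78.8% of the poorer ones, against 92.4% and 76.4% at shared promoter regions.

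Summits were most frequent just upstream of the start. Of all members, 387 summits (24.7%) lay at the start or up to 200 bp upstream and 179 (11.4%) up to 200 bp downstream, with a median position of -68 bp. At shared promoter regions these shares were 24.9% upstream and 6.92% downstream. The region covered a start at 515 members (32.8%) and at 40.7% of shared promoter regions, which were wider. Median widths were 356 bp at members and 615 bp at shared promoter regions. By annotation, 606 summits lay outside genes, 590 in introns, 170 in UTRs, 103 in coding exons and 100 in other exons. UTRs held 10.8% of member summits and 5.44% of shared promoter summits. Starts on both strands within 1 kb were found at 158 members (10.1%), against 7.36% of shared promoter regions.

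**Figure D2:**
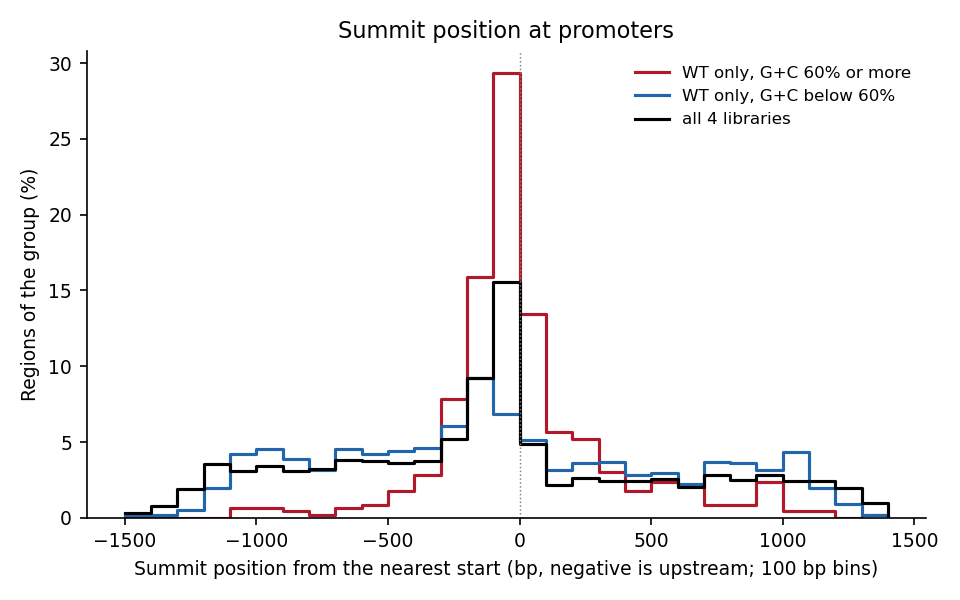
Position of the summit relative to the nearest transcript start (x axis, bp, negative upstream, bins of 100 bp) as a percent of the regions of each group (y axis). The lines show WT-only promoter regions of 60% G+C or more (red, 460 regions), those below 60% (blue, 1109) and promoter regions called in all 4 libraries (black, 3438), and each line is highest within 200 bp upstream of the start, at 29.3% per bin for the red line and 9.20% for the blue.

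A CTCF core motif with at most 1 mismatch, searched on both strands in the 300 bp, was held by 588 members (37.5%). The share was 60.8% at shared promoter regions, 55.7% at distal WT-only regions, 48.6% over all promoter regions and 2.98% in windows of equal length at all 86803 annotated starts. Core motifs without mismatch were at 50 members (3.19%), 16.7% of shared promoter regions and 4.197% of distal WT-only regions. The members were thus poorer in this motif than either class, and far richer than starts at large.

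Where a member held the core motif, the motif mostly lay near the summit. Its centre was a median of 12 bp from the summit and within 50 bp at 537 of 588 members (91.3%), against 97.4% at shared promoter regions. The motif lay on the gene's strand in 323 of 588 (54.9%), against 53.4% at shared promoter regions. It was held by 30.2% of the rich members and 40.5% of the poorer ones. By score the share was 35.3% below 100, 39.6% from 100 to under 200, and 9 of 14 at 800 or more.

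Other promoter motifs were counted as exact strings on both strands, and a match is a description of the letters alone. The GC box GGGCGG was in 30.2% of members, 21.1% of shared promoter regions, 22.5% of all promoter regions and 35.5% of windows at annotated starts. The cyclic AMP response element TGACGTCA was in 20 members (1.27%), 0.495% of shared promoter regions and 1.59% of starts. CCAAT, bound by NF-Y, was in 26.9% of members and 33.6% of starts, and the ETS string CCGGAAG in 6.31% and 8.84%. TATAAA was in 11.4% of members, 19.1% of distal WT-only regions and 10.7% of starts. GCGCATGCG, AAGATGGCG, CACGTG and ACTACAATT were in 0.892%, 1.15%, 6.44% and 0.128% of members and in 1.43%, 1.86%, 6.24% and 0.275% of starts. The GC box overlaps with CG-rich sequence by its own letters.

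To see how calls and G+C went together at like scores, regions called in both WT_CTCF libraries were sorted by mean score and by G+C. The share called in neither MUT_CTCF library was higher in G+C-rich promoters in each of the 5 score classes. Between scores of 200 and 400, it was 54.5% of 191 promoter regions of 60% G+C or more and 10.2% of 797 below 60%. Between 400 and 800, it was 28.1% of 292 and 1.32% of 910. At 800 or more, it was 14 of 297, or 4.71%, against 0 of 1224, which allows a share of up to 0.245% (3 counts of the total, for counting error only). Regions are not replicates, and these shares rest on the calls that chose the members.

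The steepest step lay at 70% G+C. Over all scores, the share without a MUT_CTCF call was 27.7% below 40% G+C, 26.0% at 40 to 49%, 23.4% at 50 to 59%, 35.7% at 60 to 69% and 64.0% at 70% or more (171 of 267 promoter regions). Between scores of 400 and 800 it was 52.9% of the 85 promoter regions of 70% G+C or more. Distal regions of 70% or more were few, and 31 of 52 (59.6%) had no MUT_CTCF call. At 60 to 69% the distal share was 21.4%, below the 30.5% of distal regions under 40% G+C, and at 60% or more it was 24.3%, against 23.9% below 60%. Within distal regions of scores below 100 the order was the opposite of that at promoters, with 75.8% at 60% G+C or more and 84.7% below. In each higher score class the order at distal regions was the same as at promoters. Between scores of 200 and 400 the distal share was 30.65% of 124 at 60% G+C or more and 7.17% of 7869 below. Between 400 and 800 it was 7.39% of 176 and 0.208% of 8648. G+C and distance from a start moved together at the members, and whether either had a part in the missing calls was not tested.

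**Figure D3:**
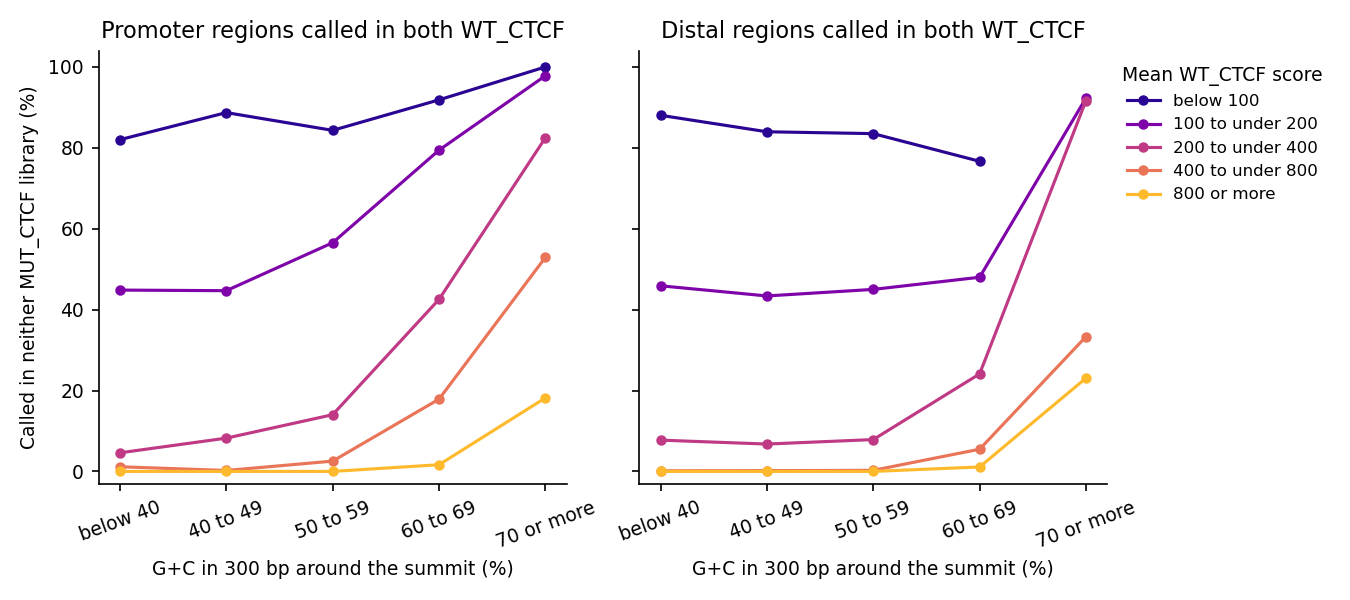
Percent of regions called in both WT_CTCF libraries that were called in neither MUT_CTCF library (y axis) by G+C in 300 bp around the summit (x axis, 5 classes), for promoter regions (left) and distal regions (right), with 1 line per class of mean WT_CTCF score and only classes of at least 10 regions. In both panels the lines for scores of 200 to under 400 and 400 to under 800 rise from 60% G+C upward, to 82.5% and 52.9% at promoters of 70% or more.

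The lists were also compared in pairs. Of the promoter peaks of 70% G+C or more, WT_CTCF replicate 1 held 282 and replicate 2 held 296, while the MUT_CTCF replicates held 70 and 67. The means were 289 ± 9.90 (SD, n = 2) and 68.5 ± 2.12 (SD, n = 2), and the ranges did not overlap. As a share of promoter peaks, they were 4.77 ± 0.18% (SD, n = 2) in WT_CTCF and 1.94% in both MUT_CTCF libraries.

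Of these G+C-richest WT_CTCF peaks, between 68.8% and 69.6% had no overlapping peak in a given MUT_CTCF list over the 4 pairs, while 3.19% and 8.11% had none in the other WT_CTCF list. Below 60% G+C, the shares were 33.4 to 41.4% against MUT_CTCF lists and 6.83% and 15.5% against the other WT_CTCF list. Lists of unequal length cannot overlap fully, and the MUT_CTCF lists were shorter, so a larger share without overlap against them was fixed by list length in part. In the other direction, 0.521 to 0.915% of MUT_CTCF promoter peaks had no peak in a given WT_CTCF list.

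**Figure D4:**
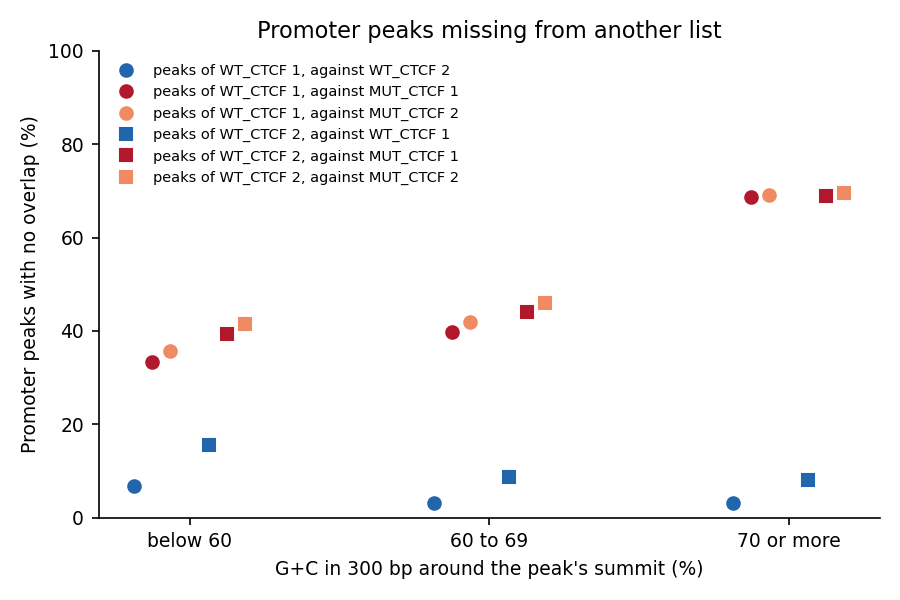
Percent of the promoter peaks of each WT_CTCF library that overlap no peak of another library's list (y axis), by G+C in 300 bp around the peak's own summit (x axis, 3 classes). Circles are peaks of WT_CTCF replicate 1 and squares of replicate 2, blue against the other WT_CTCF list and red or orange against the MUT_CTCF lists, which reach 68.8 to 69.6% at 70% G+C or more, where the blue symbols lie at 3.19 and 8.11%.

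Promoter regions called in all 4 libraries were not chosen by a missing call, and give the score in both genotypes. Their MUT_CTCF scores were lower than their WT_CTCF scores at every class of G+C, and lowest in proportion at the G+C-richest promoters. The median ratio of MUT_CTCF to WT_CTCF score ran over the 4 pairs of libraries from 0.373 to 0.428 below 40% G+C, from 0.404 to 0.457 at 40 to 49% G+C and from 0.424 to 0.473 at 50 to 59%. It ran from 0.322 to 0.372 at 60 to 69%, and from 0.182 to 0.218 at the 78 shared promoter regions of 70% or more. The ranges of the last 2 classes did not overlap each other or those at 40 to 59%. Shared distal regions had ratios of 0.446 to 0.495 at 50 to 59% G+C, 0.422 to 0.490 at 60 to 69%, where the ranges overlapped, and 0.215 to 0.244 at the 18 regions of 70% or more. A median taken over regions that kept a call in both genotypes leaves out the regions that had none. The definition of the score and the depth of each library are unknown, so a lower score is not a measured loss of binding.

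**Figure D5:**
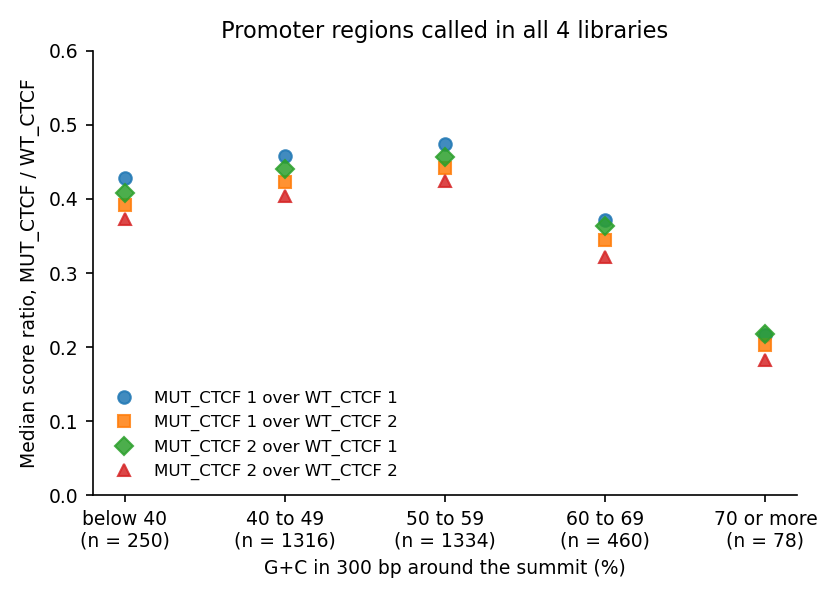
Median ratio of MUT_CTCF to WT_CTCF peak score (y axis) by G+C in 300 bp around the summit (x axis, with the number of regions), at promoter regions called in all 4 libraries, with 1 symbol for each of the 4 pairs of libraries. All 4 pairs lie lowest at 70% G+C or more, between 0.182 and 0.218.

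The members lay within 1 kb of starts of 1708 genes, 1380 of them protein coding, and 69 genes had 2 members, which was the most at any gene. Of the 4963 protein-coding genes with any promoter region, 27.8% had a WT-only promoter region and 53.7% had a promoter region called in all 4 libraries. Both kinds were found at 208 genes, 15.1% of the protein-coding genes with a member. Gene lists are given as counts beside these shares, and no list was tested.

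Among pluripotency genes, 4 of the 7 with a promoter region had a WT-only one: Dppa4, Pou5f1, Sall4 and Zfp42. Pou5f1, which encodes the pluripotency factor OCT4, had 2 members near starts annotated within the gene, 1 in an intron with scores of 176 and 177 and 1 in a coding exon with scores of 57 and 102. Sall4, a zinc finger factor of the same network, had scores of 340 and 355 over its start, at 61.3% G+C. Zfp42, the marker REX1, had scores of 302 and 288, and Dppa4 had 47 and 28. Summits lay at 1171 bp at Zfp42, at -1084 bp at Dppa4 and at 1004 bp at the Pou5f1 member in a coding exon. At these members only the edge of the region reached within 1 kb of the start. Of 3 developmental regulators with a promoter region, the neuronal factor Neurog2 had a member, with scores of 372 and 489. Its summit lay at 1133 bp, in a coding exon.

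Among cohesin genes and CTCF, 3 of 9 had a member. Apart from Stag1, these were Nipbl, the cohesin loader, with scores of 187 and 155 and its summit at -1023 bp, and Ctcf itself. The Ctcf region (chr8:108160479-108160876) covered a start, had 79% G+C and had scores of 239 and 265. Of the O-GlcNAc and hexosamine genes, the single gene with a promoter region had none that was WT-only.

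Among Polycomb genes, 3 of 6 had a member, and all had mean scores under 150. Ezh1, a histone H3 methyltransferase, had scores of 181 and 105, Jarid2, which recruits Polycomb complex PRC2, had 67 and 126, and Suz12, a core PRC2 subunit, had 21 and 51. Of 3 DNA methylation genes, Tet1, which oxidises methylcytosine, had 2 members. Scores were 125 and 138 upstream of a start, with the summit at -520 bp, and 68 and 114 downstream, with the summit at 1208 bp. Of 9 cell cycle and growth control genes, Cdk4, a cyclin-dependent kinase, had scores of 92 and 37, and Trp53, the tumour suppressor p53, had 45 and 30.

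Larger gene families lay mostly near the share over all protein-coding genes of 27.8%. A WT-only promoter region was found at 11 of 42 ribosomal protein genes (26.2%), 6 of 26 mitochondrial ribosomal protein genes (23.1%), 26 of 86 zinc finger protein genes (30.2%) and 21 of 81 solute carrier genes (25.9%). Proteasome and RNA polymerase subunit genes each had 4 of 12. Among examples, Rpl10a had scores of 463 and 365, Rps20 336 and 409, Zfp319 361 and 463, Psmd3 450 and 335, and Polr2h 120 and 159. These lay above the medians of all members, 96 and 111. Lower scores were also found in these families, such as 29 and 37 at Rpl23a and 57 and 28 at Zfp493.

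Histone genes had 13 of 27 (48.1%), and 25.9% had a promoter region called in all 4 libraries. Low scores were found at some of them, such as 37 and 47 at Hist1h1b, 47 and 37 at Hist1h2ac, and 26 and 37 at Hist3h2a. Hist1h4f had higher scores of 97 and 86, against medians of 96 and 111 over all members. The clustered histone genes are near-identical in their coding parts, and neighbouring genes can share a region. Protocadherin genes had 2 of 25 (8%), with 24 of 25 in shared regions, and Hox genes had 1 of 8, Hoxd10, with scores of 164 and 127. Olfactory receptor genes had 2 of 10.

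Members were not isolated from other CTCF regions. Another region lay within 10 kb of 1047 members (66.7%), against 68.2% of shared promoter regions and 58.2% of distal WT-only regions. A region called in all 4 libraries lay within 10 kb of 690 members (44.0%), against 48.95% of shared promoter regions and 38.6% of distal WT-only regions. The share of promoter regions that were WT-only ran over chromosomes from 19.1% on chromosome 2 to 27.8% on chromosome 13, and was 24.2% on chromosome 11, which held the most promoter regions, 855, and the most members, 207.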

How the data were processed

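The authors trimmed reads with Trim Galore 0.4.4, aligned them with Bowtie2 2.3.4.1 to mm9, removed multiply aligned and duplicate reads, and called peaks per library with MACS2 2.1.1.20160309 on tracks scaled by a Drosophila spike-in. The deposited peak lists give each peak its score and summit offset, and neither the cutoff nor the use of input is given in the sources used here. The authors joined the peaks and deposited, per region, a mean signal over the 4 libraries, in scaled counts that are whole multiples of 0.25. The deposited table also holds 5 columns of the authors' own DESeq2 1.38.0 comparison (log2 fold change, standard error, statistic and 2 p-value columns), which were not used. No column of per-sample values was left unused (0).

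Groups and replicate numbers came from the sample titles. Calls were assigned by overlap of at least 1 bp between a region and a peak. Members lay within 1 kb of a transcript start of GENCODE vM1, which is on the same build as the lists. G+C, CpG and motifs were read from that genome. No test was run, since the calls chose the members. Overlap and motif code was tested on simulated data. The members, the gene lists and the rule for named regions were chosen with earlier results of these data known. Named regions were the 10 with the highest and 3 with the lowest mean WT_CTCF score, the 5 with the highest mean count, the 5 with the highest score and a core motif without mismatch, 3 on either side of the distance limit, and members at the shorter gene lists. Other members of gene families, and the sequence at Pou5f1, were picked as examples after their values were seen. Depth per sample is unknown, so no limit from counting reads was given. Alternatives were other rules for calls, promoters, windows, motifs and counts. Values were computed in Python 3.11.15 with pandas 2.3.3, numpy 2.4.6 and scipy 1.17.1, and plots were drawn with matplotlib 3.10.9.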

Additional observations from a re-analysis of the deposited data

How the results depend on the processing

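Under 60 alternatives over 5 results, 18 values stayed within the spread or 1.5 times and 42 moved. The promoter share was above the distal share in 12 of 12 settings, which draw largely on the same regions. The cause was not tested unless the setting's own construction shows it. With a call in 1 WT_CTCF library sufficing, the members became 2791, the promoter share 41.1%, the distal share 37.9%, the motif share 33.8% and the median G+C 50.3%. With a mean count of at least 50 they were 1029, 20.1%, 11.1%, 34.9% and 57%. With peaks at or above the pooled median score, the shares were 18.2%, 14.1% and 53.1% and G+C 53.3%. There a region whose MUT_CTCF peaks all scored lower counted as WT-only, so its members were a different set. With a reciprocal overlap of 50%, the shares were 33.3%, 25.8% and 43.0% and G+C 52.3%.

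With promoters as 3000 bp upstream, the promoter share was 21.9%, the motif share 44.2% and G+C 48.7%. With 500 bp on either side, the motif share was 30.7% and G+C 55.3%, and with protein-coding starts the promoter share was 24.2% and G+C 53.7%. The motif share was 72.3% with at most 2 mismatches and 3.19% with 0. G+C was 51.6% in 500 bp and 51.6% over whole regions. Leaving out 1 library gave 1761 to 2451 members, promoter shares of 25.9 to 36.1%, distal shares of 22.2 to 31.8%, motif shares of 34.1 to 39.1% and G+C of 50.7 to 52%. Without WT_CTCF replicate 1 the members were 2451. No paired analysis was possible because the results come from no test. The scores showed no pairing by replicate number (r = -0.003 between the replicate ratios of the genotypes over 30312 regions). This does not show whether libraries of the same number were prepared together. The unknown depth limits every statement on missing calls.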
